A study of Mus musculus with 13 samples.

Results

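The genes described here are 10 genes of tumour necrosis factor (TNF) signalling, chosen by symbol from a list: 3 ligands (Tnf, Tnfsf10 and Tnfsf13b), 6 receptors (Tnfrsf1a, Tnfrsf1b, Tnfrsf11b, Tnfrsf12a, Fas and Ltbr) and the intracellular inhibitor gene Tnfaip3, which is not itself a superfamily gene. Each had 1 probe set that carried its symbol alone, so all 10 were measured, among 19537 genes on the arrays. Expression had been measured on 13 Affymetrix arrays of cells from the livers of naive C57BL/6 mice aged 6-10 weeks. Kupffer cells, which are macrophages of the sinusoids, sinusoidal endothelium (LSEC) and hepatocytes were freshly sorted and had 3 arrays each. Hepatic stellate cells (HSC), which lie beside the sinusoids and hold vitamin A, were kept in DMEM with 10% FBS. There were 2 arrays of HSC after 1 day, 1 after 7 days and 1 after 14 days. No array of uncultured HSC was analysed here, so cell type and culture cannot be told apart when HSC are set against sorted cells. The labels name biological replicates. Whether these came from separate or pooled animals, and the sex of the mice, are not given in the sources used here, and p-values measure the spread between these arrays.

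TNF ligands are made as membrane proteins that act in trimers, some of them after being cut from the cell surface, and each binds one or more receptors of the matching receptor family. Receptors with a cytoplasmic death domain, such as TNF receptor 1 and Fas, can recruit caspase-8, and most members also recruit TRAF adaptors that switch on NF-kB, a family of transcription factors. NF-kB in turn induces Tnfaip3, whose protein A20 shuts the pathway down. In the liver, Kupffer cells are a known source of TNF, and hepatocytes and endothelium are known targets.

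Levels are summarised probe-set intensities on a linear scale, and their errors are SD. No detection calls came with the values, so the pooled median of all intensities, 224.5, serves as a mark of a low reading. To each intensity 82.7, the 20th percentile over all arrays, was added before the log2 was taken. A log2 difference is a difference of group means on that scale, so it understates the change of genes with low readings. Intensities of different probe sets were not set against each other. Adjusted p-values are from limma, by Benjamini-Hochberg over all genes of a fit. A gene was called higher (or lower) in a population if it passed an adjusted p of 0.05 and a log2 difference of 1 against each of the other 3 populations, with HSC represented by the day 1 arrays. In the culture comparison the day 7 and day 14 arrays together were set against the day 1 arrays by the same thresholds.

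The purity of the arrays bears on several results. Of 8 marker genes listed for each sorted population, all 8 averaged above the pooled median in their own population, and on the day 1 HSC arrays 7 of 8 HSC markers did, the exception being Lum. The summed level of the 8 Kupffer cell markers was 71413 to 75062 on Kupffer cell arrays, 1133 to 1295 on LSEC arrays, 1199 to 1706 on hepatocyte arrays and 2157 to 3418 on all HSC arrays. The day 1 HSC arrays also carried markers of other cells: the hepatocyte list summed to 9633 to 16160 there, against 1041 to 1053 on the later HSC arrays, and the LSEC list to 5511 to 5738, against 1791 to 1798. In such bulk samples, fewer cells of a type and less RNA per cell cannot be told apart.

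Of the members, 9 of 10 passed the filter on low values in the population comparison (above the pooled median on at least 2 of its 11 arrays), and Fas did not. Called higher in Kupffer cells were 2 of these 9, Tnf and Tnfaip3, where 6.53% of all 12081 genes tested were. Called higher in day 1 HSC was 1, Tnfrsf11b, against 2.59% of all genes, and it passed the filter through those HSC arrays alone. No member was called higher in LSEC or in hepatocytes, against 2.35% and 6.8% of all genes. Tnfrsf12a was called lower in Kupffer cells, where 2.28% of all genes were, and Tnfrsf1b was called lower in LSEC, where 0.406% were. The remaining members differed between some pairs of populations or stayed near one level.

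**Figure D1:**
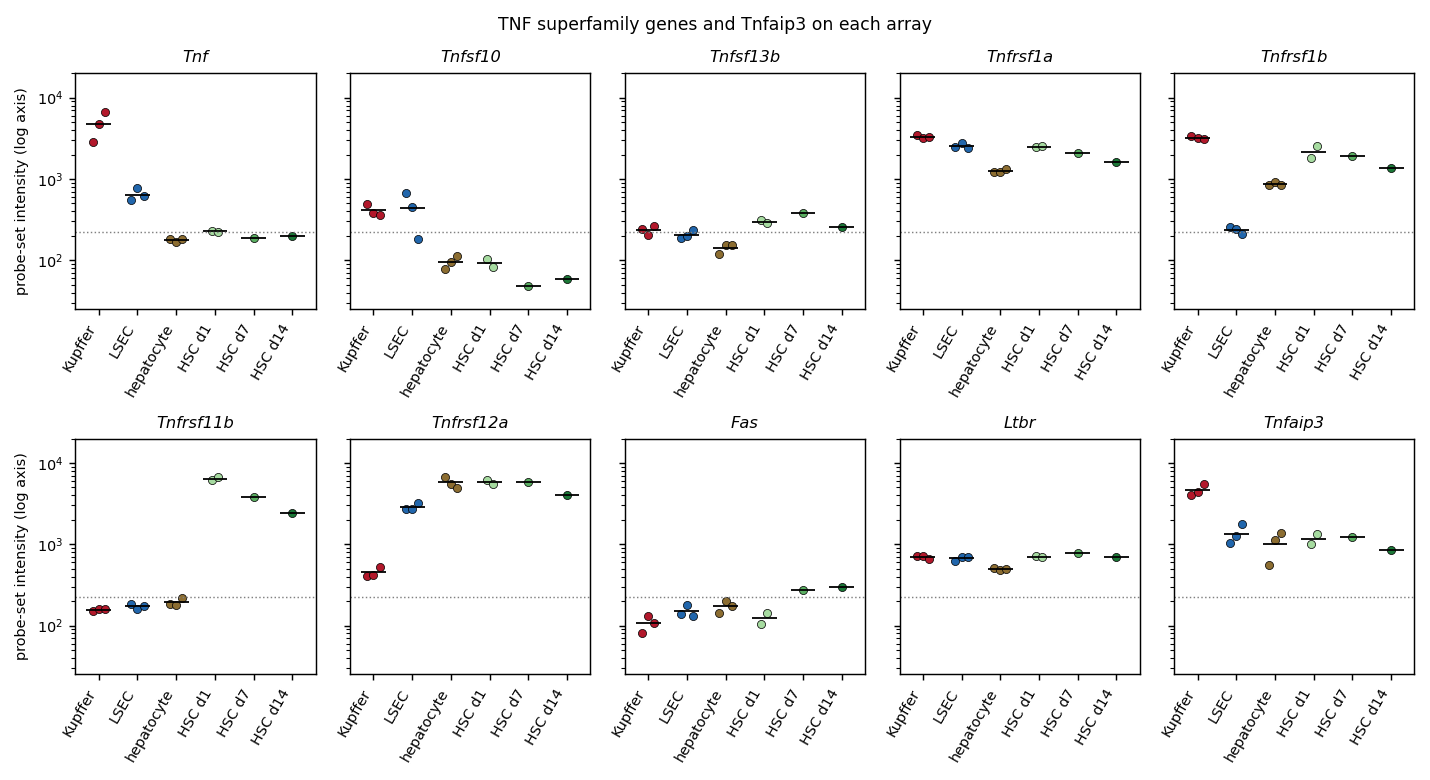
Probe-set intensity (log axis) of the 10 members on each of the 13 arrays, by group, with 1 point per array, a bar at the group mean and a dotted line at the pooled median of 224.5. Tnf and Tnfaip3 stand highest on the Kupffer cell arrays, Tnfrsf11b reads 2442 to 6676 on the HSC arrays and at most 219 elsewhere, and Tnfrsf12a reads lowest on the Kupffer cell arrays.

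Because Tnf and Tnfaip3 were the members called in the same population, their promoter windows are shown, from 250 bases before to 50 bases after the RefSeq start on GRCm38.p6. The Tnf window is chr17:35201958-35202257 on the minus strand. The Tnfaip3 window is chr10:19015361-19015660, also on the minus strand, and is 1 of 2 RefSeq starts listed for that gene. Both are written 5′ to 3′ along the gene, and capitals mark matches to the TATA box (TATAAA), to the AP-1 motif (TGANTCA) and to the NF-kB consensus (GGGRNWYYCC). In these motifs R is A or G, W is A or T, Y is C or T and N is any base. Matches on either strand are marked.
Tnf: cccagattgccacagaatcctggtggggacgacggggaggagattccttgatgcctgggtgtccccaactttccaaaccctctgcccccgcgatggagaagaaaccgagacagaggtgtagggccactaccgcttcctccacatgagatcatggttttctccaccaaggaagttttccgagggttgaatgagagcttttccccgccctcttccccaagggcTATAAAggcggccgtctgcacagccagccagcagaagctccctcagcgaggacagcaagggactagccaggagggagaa
Tnfaip3: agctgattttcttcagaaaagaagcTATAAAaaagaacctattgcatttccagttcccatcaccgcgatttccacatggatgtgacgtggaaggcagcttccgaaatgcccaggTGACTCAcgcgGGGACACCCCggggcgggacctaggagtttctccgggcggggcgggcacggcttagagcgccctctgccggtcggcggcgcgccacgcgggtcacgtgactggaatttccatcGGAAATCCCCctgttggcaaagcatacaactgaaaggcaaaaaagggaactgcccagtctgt

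In the Tnf window the TATAAA match begins 29 bases before the start. In the Tnfaip3 window the NF-kB consensus matched at 2 places that do not overlap, beginning 125 and 12 bases before the start, the second on the strand opposite to the one written. The AP-1 motif matched 136 bases before the start. TATAAA there begins 225 bases before the start, and the window of the gene's other start held none of the 3 motifs. The search covered both strands of 32851 promoter windows of all genes, of which 4.51% held the NF-kB consensus, 7.81% the AP-1 motif and 13.6% TATAAA. Windows were found for 9 of the 10 members, and besides Tnfaip3 none of those held the NF-kB consensus. Sites outside the windows, and sites that depart from the consensus at any base, were not searched for. The lack of a match therefore does not show that a gene lacks NF-kB sites. The AP-1 motif was also present for Tnfsf13b and Fas. These matches describe letters in a window and are not evidence of binding.

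Among the ligands, Tnf, the founding inflammatory cytokine of the family, was high on every Kupffer cell array. Its probe set 10450501 read 2846, 4754 and 6576 in Kupffer cells, 549.8, 767.5 and 612.8 in LSEC, 182.7, 166.7 and 183.8 in hepatocytes, and 229.8 and 221.9 in day 1 HSC. The Kupffer cell arrays did not overlap with any other group, although they spread over more than a doubling among themselves (4725 ± 1870, n = 3). The log2 difference of Kupffer cells from LSEC, the nearest population, was 2.66 (SE 0.223, adjusted p = 4.5e-07). Without Kupffer cell array 1, the lowest, and with each other array left out in turn, the call held.

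LSEC came next for Tnf. Their 3 arrays (643.4 ± 112) lay above all hepatocyte and HSC arrays, with log2 differences of 1.47 from hepatocytes (SE 0.223, adjusted p = 7.9e-05) and 1.22 from day 1 HSC (SE 0.249, adjusted p = 0.0016). Of the 8 Kupffer cell markers 1 averaged above the pooled median in LSEC, Cd5l at 294.1, 247 and 251.2, against 113.1, 172.3 and 176.6 in hepatocytes, where 2 others did. Clec4f read 168.6 to 188.9 in LSEC and 158.8 to 221.8 in hepatocytes, and the dendritic cell marker Clec9a, which read 2224 to 3066 on the Kupffer cell arrays, read 389.2 to 1025 in LSEC and 114.3 to 158.1 in hepatocytes. From the same marker list, Zbtb46 read 330.5 to 368.6 in LSEC and 189.5 to 225.8 in hepatocytes. Xcr1 was lower in LSEC, at 83.76 to 88.77 against 99.05 to 113. Flt3, Ccr2 and Siglech overlapped between the populations, below the pooled median. The part of Kupffer or dendritic cells in the LSEC reading of Tnf was not tested. With the pooled median as the added constant, the difference of LSEC from day 1 HSC was 0.94, below the threshold of 1. Hepatocytes and day 1 HSC, both at or near the pooled median, were not separated by the test (adjusted p = 0.4).

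Tnfsf10 encodes TRAIL, a ligand that can trigger apoptosis through death receptors. It read 492.2, 377.2 and 359.1 in Kupffer cells and 678.7, 446.8 and 180.2 in LSEC, against 78.17, 94.34 and 113.6 in hepatocytes and 102.5 and 83.39 in day 1 HSC. The gene passed the filter through Kupffer cell and LSEC arrays alone, the groups where it was high. Kupffer cells and LSEC overlapped, and LSEC array 3 fell below the pooled median while still above every hepatocyte and HSC array. That array was also the lowest of the 3 LSEC arrays for all 8 LSEC markers, among them Kdr at 3747, 3519 and 1422, Oit3 at 6156, 6539 and 2703 and Stab2 at 7490, 6359 and 4177. The LSEC list summed to 37221 on it and to as much as 53868 on the others, and what part this has in the Tnfsf10 reading was not tested. The log2 differences from hepatocytes were 1.46 for Kupffer cells (SE 0.283, adjusted p = 0.00053) and 1.41 for LSEC (SE 0.283, adjusted p = 0.00071), or 1.84 for LSEC without array 3. Kupffer cells minus LSEC came to 0.05 (SE 0.283, adjusted p = 0.9), and this value lay between -0.38 without LSEC array 3 and 0.39 without LSEC array 1. With the pooled median as the added constant, the differences of both from hepatocytes fell to 0.98 and 0.97.

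Tnfsf13b encodes BAFF, a survival factor for B cells. Its readings lay close to the pooled median everywhere, from 120.8 to 385.3 over the 13 arrays. Day 1 HSC averaged 296.7 ± 18.1 (n = 2), Kupffer cells 238.2 ± 31.5, LSEC 206.8 ± 23.2 and hepatocytes 143.2 ± 19.5 (n = 3 each). Day 1 HSC exceeded hepatocytes by 0.75 on the log2 scale (SE 0.111, adjusted p = 7.0e-05), under the threshold of 1. Day 1 HSC and Kupffer cells, the first and second in this order, were not separated (adjusted p = 0.068), nor were Kupffer cells and LSEC (adjusted p = 0.22).

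The receptors divided into those spread over all populations and those concentrated in some. Tnfrsf1a encodes TNF receptor 1, the death-domain receptor found on most cells. It read 3448, 3162 and 3317 in Kupffer cells, 2499, 2808 and 2377 in LSEC, 2476 and 2521 in day 1 HSC, and 1229, 1211 and 1334 in hepatocytes. All readings were well above the pooled median, and hepatocytes lay below every other array of the 4 populations. Kupffer cells were higher than hepatocytes by 1.34 on the log2 scale (SE 0.0806, adjusted p = 1.2e-08) and higher than LSEC by 0.36 (SE 0.0806, adjusted p = 0.0017). LSEC and day 1 HSC were not separated (log2 difference 0.03, adjusted p = 0.8).

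Tnfrsf1b encodes TNF receptor 2, which lacks a death domain and responds best to membrane-bound TNF. It read 253.8, 240.4 and 208 in LSEC, against 3398, 3173 and 3104 in Kupffer cells, 1827 and 2524 in day 1 HSC, and 854.3, 930.4 and 853.2 in hepatocytes. The LSEC arrays were near the pooled median and below every other array, and the 4 populations did not overlap. LSEC minus hepatocytes, the nearest population, was -1.60 (SE 0.109, adjusted p = 5.3e-08), and Kupffer cells minus LSEC was 3.39 (SE 0.109, adjusted p = 4.4e-11). Between the 2 receptors of TNF, LSEC thus lay level with day 1 HSC for Tnfrsf1a and below all other populations for Tnfrsf1b. Kupffer cells exceeded day 1 HSC by 0.57 (SE 0.122, adjusted p = 0.0013), under the threshold of 1. Day 1 HSC exceeded hepatocytes by 1.21 (SE 0.122, adjusted p = 2.5e-06), or by 0.99 without the higher of the 2 HSC arrays.

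Tnfrsf12a encodes Fn14, the receptor of the cytokine TWEAK, known to be induced in injured tissue. It read 408.9, 413.3 and 530 in Kupffer cells, against 6118 and 5575 in day 1 HSC, 6804, 5573 and 4911 in hepatocytes and 2685, 2695 and 3264 in LSEC. Kupffer cells thus lay far below the other 3 populations, and below LSEC, the nearest, by -2.48 (SE 0.13, adjusted p = 4.9e-09). Day 1 HSC and hepatocytes overlapped and were not separated (log2 difference 0.03, adjusted p = 0.86). LSEC stood between, with day 1 HSC minus LSEC at 1.00 (SE 0.145, adjusted p = 0.00013) and hepatocytes minus LSEC at 0.97 (SE 0.13, adjusted p = 2.6e-05). Both differences lie at the threshold of 1 in size and crossed it under some alternatives. Taken as LSEC minus day 1 HSC the first ranged from -1.09 to -0.94, and as LSEC minus hepatocytes the second ranged from -1.08 to -0.85. The day 1 HSC arrays carried the hepatocyte markers given above, and their part in the Tnfrsf12a reading of HSC was not tested.

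Tnfrsf11b encodes osteoprotegerin, a secreted decoy receptor that binds RANK ligand and TRAIL. Day 1 HSC read 6126 and 6676, while Kupffer cells read 148.9, 161.7 and 158.7, LSEC 186.2, 160.8 and 175.5, and hepatocytes 183.9, 177.6 and 219. All 9 sorted-cell arrays were below the pooled median. The log2 difference of day 1 HSC from hepatocytes was 4.55 (SE 0.0904, adjusted p = 6.7e-12). Since the gene passed the filter through 2 arrays, leaving out either of them removed it from the fit, and without that array it could not be called.

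Fas, the death receptor bound by Fas ligand, read 80.96 to 201.5 on all 11 arrays of the population comparison, below the pooled median, and so was not tested there. Group means were 172.9 ± 28.5 in hepatocytes, 148.9 ± 24.7 in LSEC, 106.3 ± 24.7 in Kupffer cells (n = 3 each) and 124.3 ± 26.5 in day 1 HSC (n = 2), with overlapping arrays. Ltbr, the lymphotoxin beta receptor, was the most even of the members, from 485.4 to 789.1 over all 13 arrays. Hepatocytes were lowest at 500.2 ± 15.2, and day 1 HSC (706.6 ± 19.9), Kupffer cells (699.2 ± 38.8) and LSEC (674.4 ± 42.7) were not separated from each other (adjusted p = 0.58 to 0.89). Day 1 HSC exceeded hepatocytes by 0.44 (SE 0.0828, adjusted p = 0.00051).

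Tnfaip3, the feedback inhibitor, followed Tnf in its highest population. It read 4065, 4440 and 5541 in Kupffer cells, against 1024, 1260 and 1759 in LSEC, 1012 and 1322 in day 1 HSC, and 557.9, 1128 and 1361 in hepatocytes. The Kupffer cell arrays lay above all others, and the other 3 populations overlapped. Kupffer cells minus LSEC was 1.76 (SE 0.267, adjusted p = 9.0e-05). LSEC, day 1 HSC and hepatocytes were not separated from one another (adjusted p = 0.17 to 0.67), and the hepatocyte arrays differed by more than a doubling among themselves. Unlike Tnf, Tnfaip3 was above the pooled median on all 13 arrays.

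The Kupffer cell arrays also carried markers of some other leukocytes, whose part in the results above was not tested. Of 5 measured B cell markers 2 averaged above the pooled median there, and the list summed to 1794 to 3006, against 464 to 657 on all other arrays. The dendritic cell and monocyte list summed to 2885 to 3786, with 1 of 6 measured genes above the pooled median, against 667 to 1747 elsewhere. That gene, Clec9a, at 2224 to 3066, made up most of the sum. Xcr1 (146 to 169.6) and Ccr2 (47.82 to 76.66) were above all other arrays, but below the pooled median. Flt3 (113.7 to 117.6) was below the hepatocyte arrays, Zbtb46 (184.3 to 240.1) was below the LSEC arrays, and Siglech overlapped with other populations. The T and NK cell list summed to 698 to 837 and the neutrophil list to 718 to 775, and on the other arrays these ranged from 615 to 749 and from 618 to 801.

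In culture, all 10 members passed the filter, Fas through the day 7 and day 14 arrays alone. Tnfrsf11b passed it through HSC arrays alone and Tnfsf10 through Kupffer cell and LSEC arrays alone. Called lower after longer culture was 1 of 10, Tnfrsf11b, where 4.27% of all 12368 genes fell, and 0 of 10 rose, where 5.52% of all genes did. At an unadjusted p under 0.05 in limma, 1 of 10 members was higher (Fas) and 3 of 10 were lower (Tnfrsf1a, Tnfrsf1b and Tnfrsf11b), where 21.4% and 29% of all genes were. The median log2 difference of the members was -0.21, and that of all genes was -0.04. Days 7 and 14 had 1 array each, so the spread in this fit came from all groups.

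Tnfrsf11b read 6126 and 6676 at day 1, 3814 at day 7 and 2442 at day 14. Each later array was below both day 1 arrays, and the change came to -1.05 (SE 0.158, adjusted p = 0.00019). It lies at the threshold: it was -0.98 without day 1 array 2, -0.73 for day 7 alone and -1.36 for day 14 alone. The day 14 reading was still above every sorted-cell array. The hepatocyte and LSEC markers were also lower on the later arrays, as given above. Hepatocytes and LSEC themselves averaged 193.5 and 174.2 for Tnfrsf11b, and the part of such cells in the change was not tested.

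Fas read 105.5 and 143 at day 1, 274 at day 7 and 294.5 at day 14, so that the longest-cultured arrays were the highest of all 13. The log2 difference was 0.83 (SE 0.149, adjusted p = 0.00065), which did not reach 1, although it came to 1.20 with an added constant of 1. Tnfrsf1a read 2476 and 2521 at day 1, 2072 at day 7 and 1623 at day 14. Its log2 difference was -0.43 (SE 0.117, adjusted p = 0.0098), also short of the threshold of 1 in size. Tnfrsf1b read 1827 and 2524, then 1926 and 1358, and its day 7 array lay between the day 1 arrays (log2 difference -0.39, adjusted p = 0.067). Tnfrsf12a kept high readings, 6118 and 5575 at day 1, 5880 at day 7 and 4079 at day 14 (log2 difference -0.25, adjusted p = 0.31).

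Of the ligands, Tnfsf13b was above the pooled median on all 4 HSC arrays, Tnf on 1 and Tnfsf10 on none. Tnf read 187.4 at day 7 and 200.6 at day 14, below the pooled median, and Tnfsf10 read 47.74 and 58.52, its lowest values on any array. Tnfsf13b read 385.3 at day 7, its highest value, and 258.9 at day 14. The culture differences of Tnf, Tnfsf10, Tnfsf13b, Ltbr and Tnfaip3 lay between -0.37 and 0.08 and did not pass (adjusted p = 0.42 to 0.74).

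The rest of the family was taken from lists of 15 other ligands and 22 other receptors, of which 13 and 22 had a probe set of their own. Of the other ligands 1 passed the filter among the populations, Tnfsf11 (RANK ligand), which was not called. In culture 3 were tested and 2 rose, where 5.52% of all genes did. Both passed the filter through the later arrays alone. Tnfsf18, the ligand of the T cell receptor GITR, read 143 and 206.5 at day 1, 2538 at day 7 and 1281 at day 14, while it read 67.37 to 91.4 on the sorted-cell arrays (log2 difference 2.89, SE 0.221, adjusted p = 8.6e-07). Tnfsf15 (TL1A) read 128.6 and 132.6 at day 1, 524.4 at day 7 and 492.6 at day 14 (1.47, SE 0.0946, adjusted p = 1.7e-07). Neither later array overlapped with day 1 for these genes.

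Of the 14 other receptors tested among the populations, 5 were called higher in 1 population, where 18.3% of all genes were. In Kupffer cells these were Tnfrsf11a (RANK), at 1263 ± 43.4 against 160.8 ± 7.34 in day 1 HSC, the nearest population, which passed the filter through the Kupffer cell arrays alone, and Tnfrsf14 (HVEM), at 1895 ± 138 against 431.6 ± 48.5 in day 1 HSC. In LSEC they were Tnfrsf26, at 3850 ± 671 against 727.1 ± 83.2 in Kupffer cells, and the TRAIL receptor genes Tnfrsf10b and Tnfrsf23, the second encoding a decoy receptor in the mouse. Tnfrsf22, Tnfrsf23 and Tnfrsf26 are related genes, and hybridisation of one transcript to the probes of another was not tested. Tnfrsf22 and Ngfr came closest among those that did not pass, at 0.87 and 0.86 above the nearest population. In culture Tnfrsf23 rose by 1.19 (SE 0.189, adjusted p = 0.00027). Tnfrsf21 (death receptor 6) fell by 1.96 (SE 0.354, adjusted p = 0.00069), reading 3136 and 3319 at day 1, 1158 at day 7 and 498.1 at day 14.

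**Figure D2:**
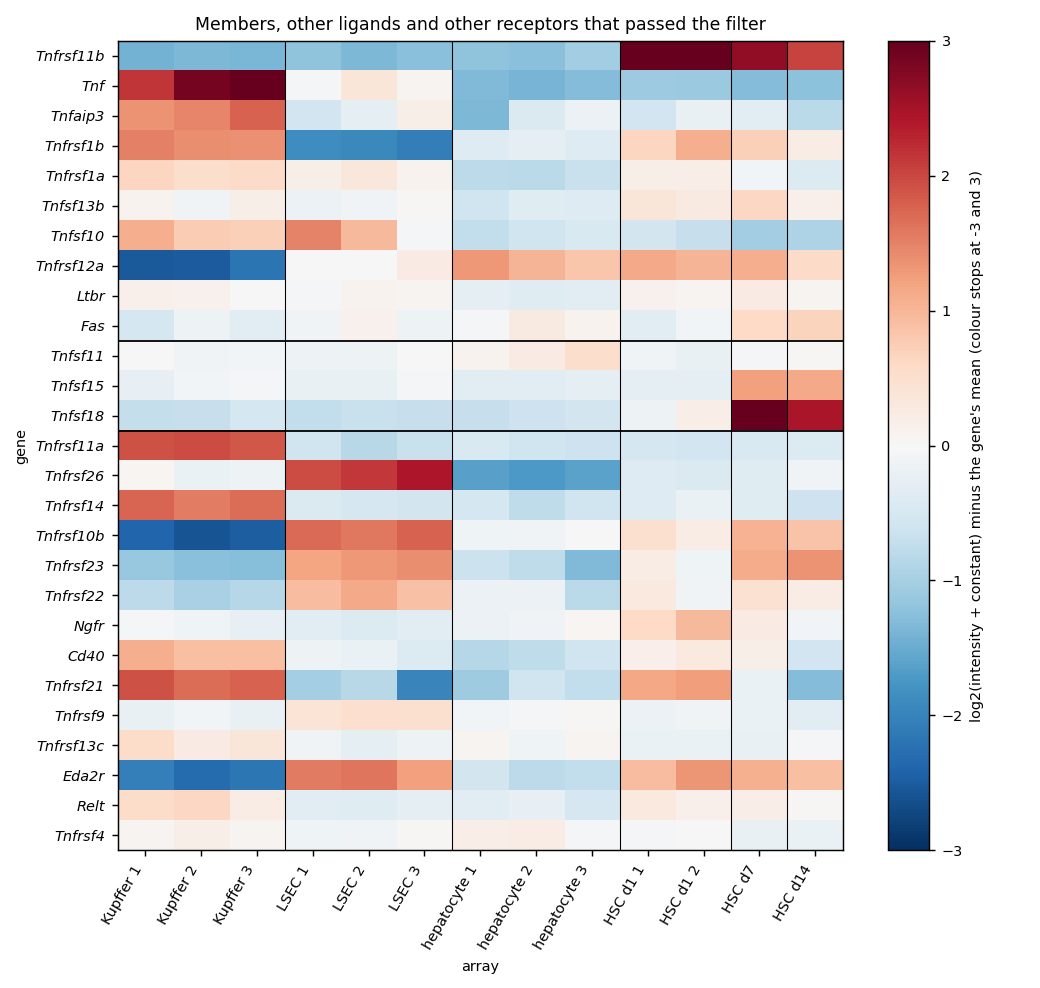
Log2(intensity + 82.7) minus each gene's mean over the 13 arrays, for the 10 members (top block), 3 other ligands (middle) and 14 other receptors (bottom) that passed the filter, with arrays in columns by group. Tnf, Tnfaip3, Tnfrsf11a and Tnfrsf14 are highest on the Kupffer cell arrays, Tnfrsf1b and Tnfrsf26 set LSEC apart in opposite directions, and Tnfsf18 and Tnfsf15 are highest on the later HSC arrays.

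Ligands can be set beside their receptors by population. For TRAIL, the ligand gene Tnfsf10 was highest in Kupffer cells and LSEC, while its death receptor gene Tnfrsf10b read 3679, 3380 and 3827 in LSEC, 973.8, 978.9 and 1066 in hepatocytes, 1513 and 1252 in day 1 HSC, and 139.8, 108.2 and 125.9 in Kupffer cells. Kupffer cells were thus below the pooled median for this death receptor gene and above it for the ligand, and LSEC averaged above it for both. The decoy receptor gene Tnfrsf23 and the related Tnfrsf22 were above the pooled median in Kupffer cells, at 500.2 to 558.9 and 317.8 to 373.6. LSEC exceeded day 1 HSC for Tnfrsf10b by 1.34 (SE 0.103), and the largest of its 3 adjusted p-values was 6.2e-07. Osteoprotegerin, which can bind TRAIL, was read on HSC arrays alone above the pooled median.

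For the RANK system, RANK (Tnfrsf11a) read 1257, 1309 and 1223 in Kupffer cells and 119.4 to 185 on the other 10 arrays. The ligand gene Tnfsf11 read 318.4 to 593.3 over the 13 arrays, and hepatocytes minus Kupffer cells, the nearest population, was 0.36 (SE 0.101, largest adjusted p = 0.007). The receptor and the decoy therefore stood above the pooled median in different populations, Kupffer cells and HSC. The ligand's probe set was above it on all 13 arrays, but without detection calls this does not show that every population expresses the gene. The partners of 3 further members were looked at after their values were seen. The BAFF receptor genes Tnfrsf13b and Tnfrsf17 read at most 182.4 and 127.5, and Tnfrsf13c read 457 to 578.1 in Kupffer cells, whose arrays carried the B cell markers given above, against 286.9 to 395.5 elsewhere. Fasl read at most 96.05, Lta at most 142.4 and Ltb at most 214.3, so the ligands of Fas and Ltbr were below the pooled median on every array. The TWEAK gene Tnfsf12 shares its probe set with Tnfsf13 and was not analysed here.

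**Figure D3:**
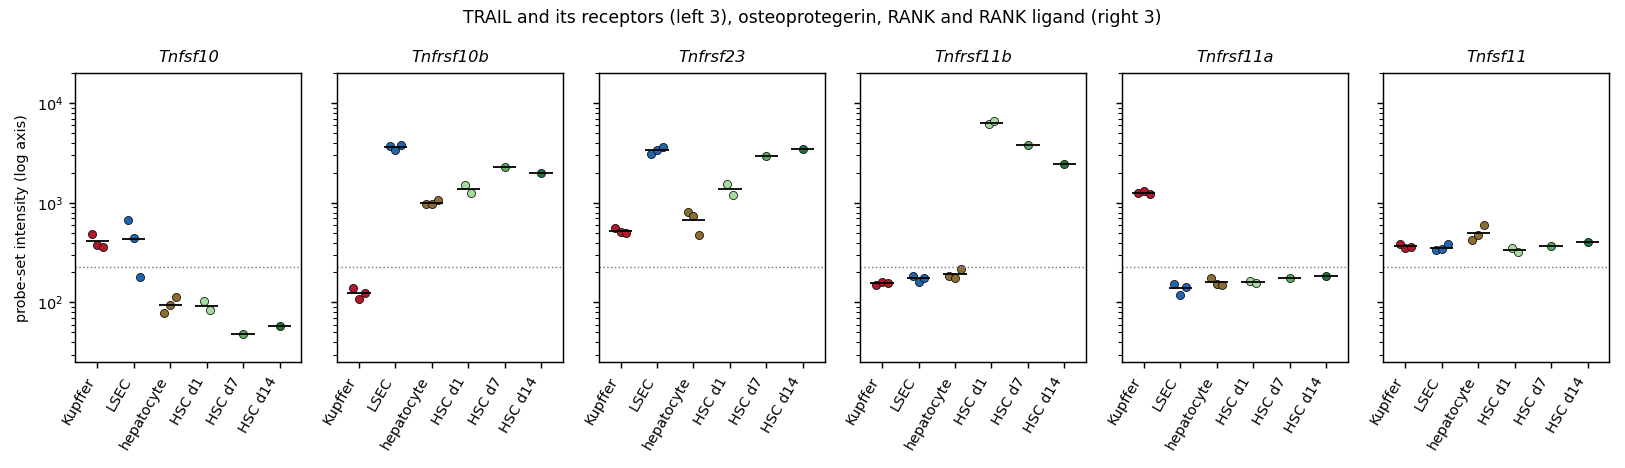
Probe-set intensity (log axis) of the TRAIL ligand and receptor genes and of osteoprotegerin (Tnfrsf11b), RANK (Tnfrsf11a) and RANK ligand (Tnfsf11), with 1 point per array, bars at group means and a dotted line at the pooled median. Tnfrsf10b reads 108.2 to 139.8 in Kupffer cells and 3380 to 3827 in LSEC, whereas Tnfrsf11a is above the median in Kupffer cells and Tnfrsf11b on the HSC arrays.

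Downstream of the receptors, 2 of 17 tested genes of the receptor complex and death signalling were called among the populations, both higher in Kupffer cells, against 18.3% of all genes called in any population. Ripk3, the kinase of necroptosis, averaged 2300 ± 327 there against 503.9 ± 67.6 in LSEC (log2 difference 2.02, SE 0.138, largest adjusted p = 1.4e-07). Traf5, which passed the filter through the Kupffer cell arrays alone, was at the threshold with 1.00 and was lost without Kupffer cell array 1 or 2 or hepatocyte array 1 or 3 (0.97 to 1.00), and with the pooled median as the added constant (0.74). In culture Ripk3 rose, reading 445.7 and 522.4 at day 1, 1696 at day 7 and 995.4 at day 14 (1.29, SE 0.219, adjusted p = 0.00044). Mlkl, which encodes the protein that RIPK3 phosphorylates, fell (-1.10, SE 0.232, adjusted p = 0.002), as did the inhibitor of apoptosis gene Birc3 (-1.59, SE 0.175, adjusted p = 1.6e-05). The median culture difference of this list was -0.37, against -0.04 for all genes.

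Of 19 NF-kB genes tested, 3 were called higher in Kupffer cells and 1 in LSEC, a share near the 18.3% of all genes called in any population. Nfkbie, Nfkbiz and Rel exceeded LSEC, the nearest population, by 2.50 (SE 0.112), 1.98 (SE 0.218) and 1.75 (SE 0.122), and Tnip1, an A20-binding protein gene, was higher in LSEC than in day 1 HSC by 1.18 (SE 0.164). In culture the inhibitor genes Nfkbia (-1.43, SE 0.222, adjusted p = 0.00023) and Nfkbib (-1.09, SE 0.194, adjusted p = 0.00063) fell, and none of the 19 rose. Of all genes 4.27% fell and 5.52% rose. Nfkbia averaged 4233 in hepatocytes and 4608 in LSEC, against 2489 in day 1 HSC. Nfkbib averaged 4223 and 4578, against 3512. The day 1 HSC arrays carried markers of both cell types, and the part of such cells in these falls was not tested. Of 8 genes of TNF shedding and mRNA control, Adam17, the protease that releases TNF, was higher in Kupffer cells by 1.20 over LSEC (3196 ± 167 against 1345 ± 45.6). Its inhibitor gene Timp3 was higher in day 1 HSC by 1.07 over LSEC (13760 ± 2150 against 6510 ± 866), or by 0.91 without day 1 array 2 and 0.97 without LSEC array 1. The mRNA decay factor genes Zfp36l1 and Zfp36l2 fell in culture, with log2 differences of -1.47 (SE 0.221) and -1.09 (SE 0.143).

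Among genes that TNF is known to induce, 10 of 18 tested were called in a population: 7 in Kupffer cells, 2 in day 1 HSC and 1 in LSEC. Of all genes 18.3% were called in any population and 6.53% in Kupffer cells. Il1b, Il6, Ptgs2 and Sele had fewer than 2 arrays above the pooled median outside the population they were called in, and so were tested through that population. In Kupffer cells the widest margins were those of Il1b at 3.68, Tnfaip2 at 2.89, Irf1 at 2.51 and Il6 at 2.50, in day 1 HSC Ptgs2 at 4.73 and Csf1 at 1.80, and in LSEC the adhesion molecule gene Sele at 1.28, or 0.93 with the pooled median as the added constant. Many of these genes also respond to stimuli other than TNF. In culture 4 of the 18 rose and 5 fell, where 5.52% and 4.27% of all genes did. Il6 rose by 2.31 (SE 0.233), Lif by 1.47 (SE 0.289), Tnfaip6 by 1.14 (SE 0.153) and Vcam1 by 1.05 (SE 0.165). Cxcl2 (-3.98, SE 0.338), Ccl5 (-2.62, SE 0.468), Cxcl1 (-1.82, SE 0.407) and Ccl2 (-1.30, SE 0.288) fell, while Tnf itself, below the pooled median on 3 of the 4 HSC arrays, did not pass. Cxcl1 averaged 2493 in hepatocytes against 1788 in day 1 HSC, and Ccl2 12070 in LSEC against 8031. Cxcl2 and Ccl5 averaged lower in hepatocytes and LSEC than in day 1 HSC. The part of hepatocytes and LSEC on the day 1 arrays in these falls was not tested.

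**Figure D4:**
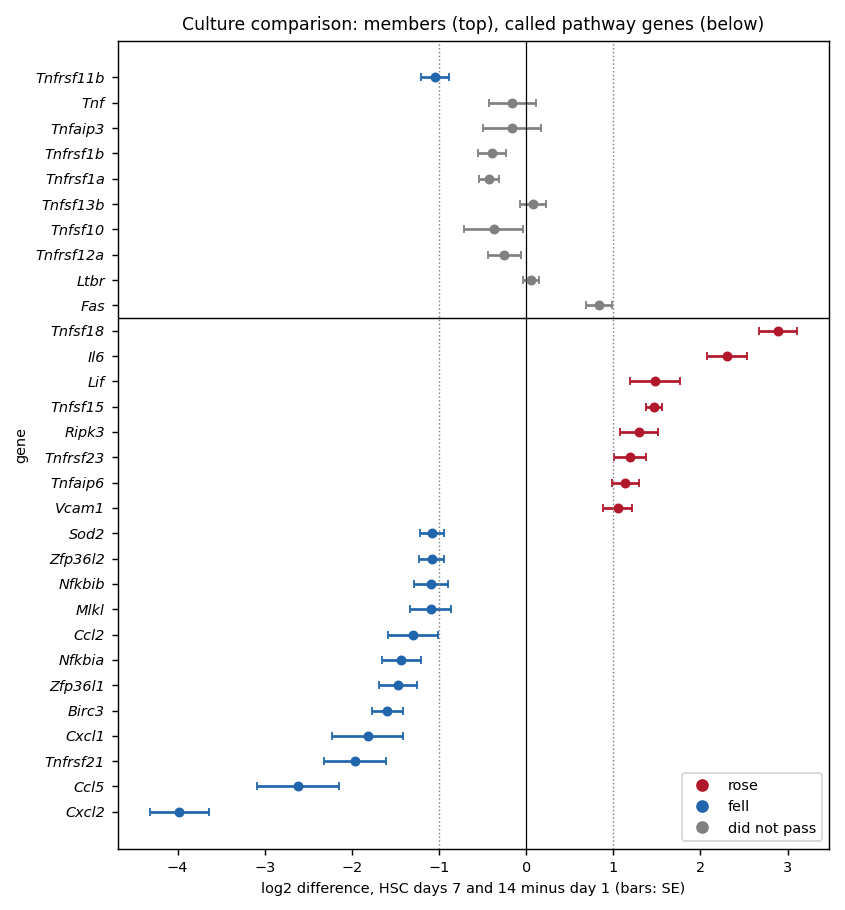
Log2 difference of HSC cultured 7 or 14 days minus HSC cultured 1 day, with SE bars, for the 10 members (above the line) and for the called family and pathway genes (below). Dotted lines mark the threshold of 1 in size. Tnfrsf11b, at -1.05, is the called member, and the other genes range from -3.98 for Cxcl2 to 2.89 for Tnfsf18.

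Finally, the genes with the most similar pattern to each member were ranked by the root mean square difference of log2 profiles over the 13 arrays, after each gene's own mean was taken off. For Tnf, whose own profile departs from its mean by 1.64 on this measure, these were Arhgap25 at 0.32, Gbp4 at 0.34 and 6330407A03Rik at 0.37. Tnfrsf11b (1.94) was nearest to Foxf1 at 0.32, Pdgfra at 0.32 and Ddr2 at 0.37, genes that read 1861 to 5436 on HSC arrays and at most 213 elsewhere. Tnfaip3 (0.91) was nearest to Nfkbiz at 0.287, which encodes an atypical NF-kB inhibitor protein, with Slc8b1 at 0.295 and Ppm1h at 0.311 close behind. Tnfrsf12a (1.38) was nearest to Zfp948 at 0.39 and Tnfrsf1b (1.25) to Tent5a at 0.45 and Notch2 at 0.47. Tnfsf10 (0.85) was nearest to Kctd12b at 0.24, which read 798.9, 644.7 and 242.3 in LSEC and thus was also lowest on LSEC array 3. Tnfrsf1a (0.49), Tnfsf13b (0.32), Fas (0.34) and Ltbr (0.19) varied little, and were nearest to Zfp703 at 0.10, Mapkapk3 at 0.14, Fabp3 at 0.16 and Smyd4 at 0.04.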

How the data were processed

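The deposited values are linear intensities, summarised by the authors to a single reading for each probe set. Per the submitters' processing notes, the tools included MAS5 version 5.0 and Affymetrix Expression Console, but what each did is not said. Background correction, normalization and genome build are not given in the sources used here, and the number of arrays limits the precision. Probe sets with 1 symbol (21181 of 25194) were used, symbols were updated through Entrez identifiers to RefSeq, and the probe set with the highest mean stood for a gene. Genes above the pooled median on at least 2 arrays of a fit were tested with limma 3.58.1 in R 4.3.3, two-sided, on log2(intensity + 82.7). The population fit had 11 arrays and 7 residual degrees of freedom, and the culture fit 13 arrays and 8. The fits were tested on simulated data. Members and gene lists were chosen with earlier results of these data known. All members were named, from each other list up to 4 called genes per population or direction and up to 2 that did not pass, and for each member the genes of most similar profile. Alternatives covered the added constant, filter, scaling, probe set rule, variance trend, replicate block, left-out arrays and, in culture, the HSC arrays alone and single days. Promoter sequences are from RefSeq, GRCm38.p6.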

Additional observations from a re-analysis of the deposited data

How the results depend on the processing

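The number of members called among the populations was 3 under all 8 alternatives that keep every array, and 2 to 3 with 1 array left out, the drop being Tnfrsf11b, which then had too few arrays above the pooled median to be tested. In culture, 1 member was called, against 2 with an added constant of 1 (Fas joined Tnfrsf11b), 0 for day 7 alone, and 0 to 1 with a day 1 array left out, the 0 being without array 2. Genes called higher in day 1 HSC numbered 313, and 168 to 318 with 1 array left out, with 205 without day 1 array 1 and 168 without day 1 array 2. Genes that fell in culture numbered 528, against 324 with the pooled median as the added constant and 793 with 1. Counts of other family and pathway genes stayed within 21 to 26 among the populations (23) and 15 to 23 in culture (20). No member's called difference changed sign. With the replicate block 3 members were called. The numbers in the titles share no stated source, and deviations of same-numbered arrays correlated at -0.111 to 0.11 over 15 pairs, so the block was kept as an alternative. A fit with a single day 1 array assumes that it varies like the other groups. Quantile normalization and median scaling moved the median difference of all genes by at most 0.068. With no detection calls, signal over background could not be set for low readings such as Fas, Tnfsf13b and Tnf in culture.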

Other observations

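Tnf read lowest on Kupffer cell array 1 and highest on array 3, and so did several genes of the NF-kB pathway. Of the 19 NF-kB genes tested, 6 had the same order of the 3 Kupffer cell arrays (Nfkb2, Rel, Nfkbia, Nfkbib, Nfkbie and Nfkbiz), as did 7 of 18 TNF response genes (Sele, Cxcl1, Cxcl2, Cxcl10, Ccl2, Ccl5 and Il6) and the members Tnfaip3 and Tnfrsf12a. Sele, however, read only 147.1, 149.3 and 150.8 there, nearly level and below the pooled median. Over all 12081 genes tested the share in this order was 13%, and over the genes called higher in Kupffer cells it was 16.1%. The order was chosen after the values of Tnf were seen, and array numbers have no order of their own. Cxcl2 read 4128, 7267 and 8459 on these arrays and Il6 read 1005, 1350 and 1928. The hepatocyte marker Alb read 3374, 1027 and 2292, another order, which Apoa1, Serpina1c, Ttr, Cps1, Fgg and Ahsg shared. Hnf4a read 201.4, 203.5 and 220.1, in the order of Tnf but below the pooled median. The part of hepatocyte RNA in these orders was not tested.

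In hepatocytes Tnfaip3 read 557.9, 1128 and 1361, and Nfkbiz and Nfkbia had the same order, with 702.3, 1190 and 1518 and with 3130, 4667 and 4903. Of the tested NF-kB genes, Rel and Nfkbib also had this order. More of them had the opposite order: Nfkb2 (793, 779.9 and 584.7), Rela (3130, 2915 and 2886), Ikbkb, Ikbkg, Map3k7, Tab1, Tab2 and Tab3. The list thus shared no single order in hepatocytes. Readings of 3 arrays carry no test of this order.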
